A study of Mus musculus with 8 samples.

Results

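Myokines are proteins that skeletal muscle cells release, and chemokines are small secreted proteins that attract leukocytes. WFS1 ChIP-seq peaks were described at 10 such genes in proliferating mouse C2C12 myoblasts. The genes, fixed by name, were Il6, Lif, Il15, Csf1, Ccl2, Ccl7, Cxcl1, Cxcl5, Cxcl12 and Fndc5, and they are 10 of the 21951 protein-coding genes in the annotation used. They were chosen with earlier results of these data known. Every peak in a gene or within 100 kb of either end of it was taken. This gave 55 of the 22292 peaks that the 2 peak lists hold after joining.

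C2C12 is a mouse myoblast line that can be grown as dividing myoblasts or differentiated into myotubes. Wildtype cells were crosslinked with DSG and formaldehyde, and WFS1 was immunoprecipitated with an antibody to the endogenous protein. The DNA of 1 immunoprecipitation was sequenced after 30 sonication cycles and, for a further portion of it, after 36 cycles. The series has 8 libraries, of which the 2 wildtype ChIP libraries have the peak lists analyzed here, whereas the inputs and the libraries of WFS1 knockout cells with FlagTag WFS1 were not used here. The labels do not say that the wildtype cells are a clone, and the knockout cells made with CRISPR/Cas9 enter no comparison. The lists hold 18283 peaks at 30 cycles and 12674 peaks at 36 cycles, and the number of reads behind them is unknown. Since each condition is 1 library and both come from 1 immunoprecipitation, no test was possible, and all comparisons are descriptions. Expression was not measured in these libraries, so the cell label was not checked against markers.

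WFS1 is a membrane protein of the endoplasmic reticulum, part of which lies in the inner nuclear membrane, where it can contact chromatin. Cytokine and chemokine genes are typically kept at low levels and induced through promoters and distant enhancers that bind NF-kB, AP-1 and C/EBP factors. In muscle, their products act on immune cells, on satellite cells and on the muscle fibre itself.

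The sequences that carry the matches described below are given first, on the strand of the gene, with coordinates of GRCm38. Capitals mark the AP-1 motif TGACTCA, the E-box CAGCTG that MyoD-type factors bind, the NF-kB motif GGANNTTCC, the RUNX motif AACCNCA, the C/EBP motif TTGCNNAA or the STAT motif TTCNNNGAA, each read on both strands. The Il6 and Lif stretches were chosen for their AP-1, E-box and promoter matches, and not for closeness to the start site. The Il6 distal stretch, from the farther of the 2 Il6 peaks, lies at chr5:29950963-29951047 and the Il6 promoter stretch, which no peak covers, at chr5:30012864-30013113. The Lif stretches lie at chr11:4297925-4298021 and chr11:4299462-4299512 in peaks downstream of the gene, and in both an E-box and an AP-1 match share bases.
Il6 distal: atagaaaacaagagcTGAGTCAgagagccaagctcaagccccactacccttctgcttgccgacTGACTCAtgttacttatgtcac
Il6 promoter: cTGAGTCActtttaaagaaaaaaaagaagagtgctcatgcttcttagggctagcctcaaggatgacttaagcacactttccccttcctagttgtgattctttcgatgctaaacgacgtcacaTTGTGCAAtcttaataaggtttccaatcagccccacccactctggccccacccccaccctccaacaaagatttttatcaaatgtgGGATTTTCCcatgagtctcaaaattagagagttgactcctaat
Lif first: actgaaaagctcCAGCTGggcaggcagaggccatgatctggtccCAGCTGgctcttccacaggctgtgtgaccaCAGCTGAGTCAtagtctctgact
Lif widest: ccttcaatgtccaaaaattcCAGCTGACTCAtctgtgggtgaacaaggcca

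For Csf1 and Il15, which lie on the minus strand, the stretches were chosen for an NF-kB match at the Csf1 start site, a run of AP-1 matches far upstream of Csf1, an AP-1 match beside a RUNX match in the most distant upstream Csf1 peak, and the NF-kB match of the wider Il15 peak. They lie at chr3:107760585-107760653, chr3:107823413-107823487, chr3:107829703-107829779 and chr8:82296298-82296356.
Csf1 start: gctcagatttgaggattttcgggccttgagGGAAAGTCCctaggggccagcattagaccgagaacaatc
Csf1 upstream: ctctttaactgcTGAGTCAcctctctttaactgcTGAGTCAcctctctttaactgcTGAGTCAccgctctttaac
Csf1 last: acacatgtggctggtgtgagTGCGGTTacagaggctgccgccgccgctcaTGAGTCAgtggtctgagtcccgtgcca
Il15 far: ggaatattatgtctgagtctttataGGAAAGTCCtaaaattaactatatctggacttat

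For the chemokine genes, the stretches show the NF-kB matches at Ccl2, Cxcl1 and Cxcl5, the neighbouring E-box and AP-1 matches of the most distant Cxcl5 peak, and the matches of the lone Cxcl12 peak. The Ccl2 stretches lie at chr11:82033082-82033236 and chr11:82011889-82011964, the Cxcl1 stretch at chr5:90891145-90891212, the Cxcl5 stretches at chr5:90684344-90684409 and chr5:90706366-90706494, and the Cxcl12 stretch at chr6:117202036-117202108. The Fndc5 stretch, from the peak nearest to that gene, lies at chr4:129081775-129081855.
Ccl2 near: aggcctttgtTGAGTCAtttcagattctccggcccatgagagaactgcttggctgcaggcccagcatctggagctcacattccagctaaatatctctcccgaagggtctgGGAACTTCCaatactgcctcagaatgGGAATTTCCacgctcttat
Ccl2 far: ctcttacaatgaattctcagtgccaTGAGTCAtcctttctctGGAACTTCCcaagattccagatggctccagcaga
Cxcl1 start: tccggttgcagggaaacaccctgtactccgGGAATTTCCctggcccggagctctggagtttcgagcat
Cxcl5 far: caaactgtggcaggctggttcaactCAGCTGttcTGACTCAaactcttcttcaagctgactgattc
Cxcl5 middle: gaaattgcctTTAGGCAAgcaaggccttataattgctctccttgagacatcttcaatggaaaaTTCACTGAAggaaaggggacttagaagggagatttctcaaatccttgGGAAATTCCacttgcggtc
Cxcl12 peak: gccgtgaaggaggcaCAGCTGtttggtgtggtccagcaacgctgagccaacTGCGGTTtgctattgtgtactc
Fndc5 near: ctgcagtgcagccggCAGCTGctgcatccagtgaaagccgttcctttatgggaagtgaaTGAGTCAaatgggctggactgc

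WFS1 peaks lay at or close to the start sites of Il6, Csf1, Ccl2 and Cxcl1, and far from those of Cxcl12 and Fndc5. All 10 genes had a peak in or within 100 kb, compared with 73.4% of all protein-coding genes. Within 10 kb of the start site, 7 of the 10 genes had a peak, compared with 25.1% of all. Within 1 kb, it was 4 of the 10, compared with 13.2% of all, and at each of these 4 genes a peak covered the start site or came within 100 bp of it. Of these 4 peaks, only that of Csf1 was in both lists. With peaks of both lists alone, the nearest lay at -118.164 kb for Il6, -2.196 kb for Ccl2 and -9.305 kb for Cxcl1 (negative is upstream). The distance from start site to nearest peak edge had a median of 2.55 kb over the 10 genes, with a range of 0 to 55.1 kb, and a median of 41.7 kb over all protein-coding genes. With peaks of both lists alone the median was 25.9 kb over the 10 genes and 128.5 kb over all protein-coding genes, and 4 of the 10 had such a peak within 10 kb, compared with 9.11% of all. These are shares of a list of 10 genes chosen by name, in which neighbouring genes share peaks, and carry no test. The list was chosen with earlier results of these data known, so the choice was not blind to them.

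The genes differed widely in the number of peaks. Csf1 had 15 peaks, Lif 11, Ccl7 9, Ccl2 8, Cxcl5 6, Cxcl1 5, Fndc5 4, Il6 and Il15 2 each, and Cxcl12 1. The median was 5.5 peaks per gene, compared with 2 for all protein-coding genes (interquartile range 0 to 5). As many peaks as at Csf1 or more were found at 1.87% of protein-coding genes, and as many as at Lif or more at 5.23%. By contrast, 58.7% of genes had at least the 2 peaks of Il6 and Il15, and 73.4% at least the peak of Cxcl12. Windows grow with gene length, and Il15 spans 71.6 kb while Ccl7 spans 1.81 kb.

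**Figure D1:**
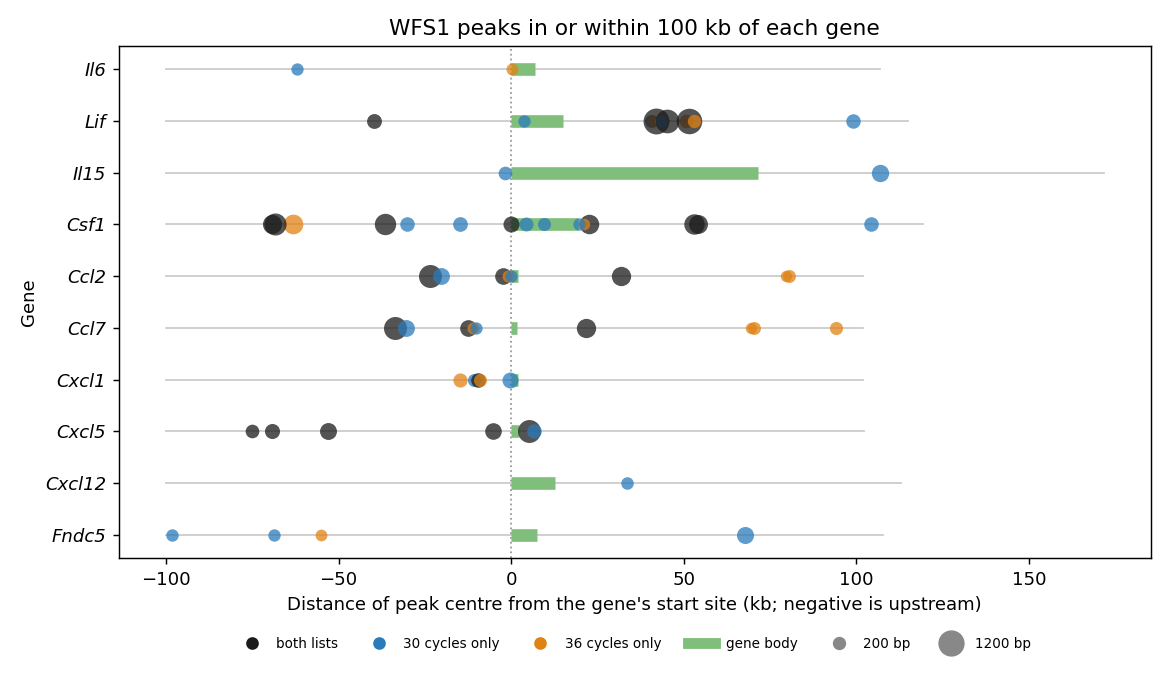
WFS1 peaks by gene, plotted at the distance of the peak centre from the start site in kb, with upstream negative. Point area grows with peak width, colour gives the list, the green bar is the gene and the grey line the window of 100 kb around it. Csf1 with 15 peaks and Lif with 11 carry the most peaks, the Lif peaks gathering between 40.3 and 52.9 kb downstream, and Cxcl12 has 1.

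Among the interleukins, Il6, which encodes an inflammatory cytokine that contracting muscle also releases, had a peak directly behind its start site and no further peak nearer than 62.0 kb. Il6 (ENSMUSG00000025746) lies on chromosome 5 at 30013114 to 30019981 on the plus strand. The near peak spanned 30013116 to 30013342 (227 bp), began 2 bp past the start site and overlapped UTR and coding sequence of the gene's exons, and it was called at 36 cycles only. The distant peak, 242 bp wide and 62.0 kb upstream between genes, was called at 30 cycles only. Neither list alone therefore showed both Il6 peaks, and no Il6 peak was common to both lists.

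The promoter of Il6 held an AP-1, a C/EBP and an NF-kB match within the 250 bases before the start site, all outside the peak. It also held a match to the MEF2 motif CTANNNNTA, which is not in capitals above. The near peak itself held none of the 9 motifs searched. The distant peak held a pair of AP-1 matches, whose starts lay 48 bases apart, in its central part (Il6 distal above). In all, 7.27% of the 55 peaks and 6.80% of all peaks held at least 2 AP-1 matches, so such a pair was as frequent here as in the full lists.

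Lif encodes leukemia inhibitory factor, an IL-6 family cytokine that stimulates myoblast proliferation, and its peaks lay mostly in a dense group behind the gene. Lif (ENSMUSG00000034394) lies on chromosome 11 at 4257557 to 4272514 on the plus strand. From 40.3 to 52.9 kb downstream of the start site, 8 peaks lay in a stretch of 12.9 kb, of which they covered 39.9%. Of these, 3 were called in both lists, 2 at 30 cycles only and 3 at 36 cycles only. Among them were the 3 widest peaks of all 10 genes, at 1356, 1314 and 1124 bp.

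The widest Lif peak, at 41.3 kb, was 1356 bp in the 30-cycle list and 613 bp in the 36-cycle list. The 1314 bp peak at 50.9 kb was a single peak at 30 cycles and 2 separate peaks of 195 and 310 bp at 36 cycles. At 44.7 kb the order was the other way, with 599 bp at 30 cycles and 905 bp at 36 cycles. Only 2.27% of all peaks were at least as wide as the first of these, and 2 peaks of the group had at least 7 further peaks within 10 kb, which was the case for 1.55% of all peaks.

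The other 5 peaks of the group were 237 to 318 bp wide and lay between genes, 1 of them with 71.7% of its bases in repeats. The remaining Lif peaks were scattered. The nearest, 242 bp and called at 30 cycles only, lay in an intron 3.46 kb downstream of the start site, with 52.5% of its bases in repeats. A peak of 391 bp in both lists lay 39.4 kb upstream and 71 bp from the start site of Castor1, and a peak of 366 bp at 30 cycles only lay 98.8 kb downstream in an intron of Hormad2. The Osm gene, which encodes oncostatin M of the same cytokine family, lies beside Lif and had 10 peaks in its own window, which overlaps that of Lif.

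In 2 of the Lif peaks, at 40.3 and 41.3 kb, a CAGCTG E-box ran into an AP-1 match so that they shared bases (Lif first and Lif widest above). This arrangement was found in 2 of the 55 peaks (3.64%) and in 133 of all 22292 peaks (0.597%). The peak at 40.3 kb held 3 E-boxes within its central part, and at least 3 CAGCTG matches were found in 2.52% of all peaks. The arrangement was looked for after these sequences had been seen, and a match is a run of letters and not a bound site.

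Il15 encodes interleukin 15, which acts on T cells, natural killer cells and muscle, and it had 2 peaks that both came from the 30-cycle list only. Il15 (ENSMUSG00000031712) lies on chromosome 8 at 82331632 to 82403222 on the minus strand. The nearer peak, 318 bp, lay 1.64 kb upstream of the start site at 82404866 to 82405183, with a GC content of 34.9% and no AP-1, E-box or NF-kB match. The wider peak, 563 bp, lay behind the gene's end, 106.6 kb from the start site, and held an NF-kB match and an E-box. At 36 cycles no peak was found within 100 kb of Il15, and the nearest lay 258.9 kb from its start site.

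Csf1 encodes macrophage colony-stimulating factor, on which macrophages depend for survival and growth, and it had the most peaks of the 10 genes. Csf1 (ENSMUSG00000014599) lies on chromosome 3 at 107741048 to 107760469 on the minus strand. Of its 15 peaks, 7 were in both lists, 6 at 30 cycles only and 2 at 36 cycles only, and together they covered 8182 bases. At least 7 peaks of both lists, as at Csf1, were found at 1.68% of protein-coding genes.

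A peak of 469 bp covered the Csf1 start site and was called in both lists, with 353 bp at 30 cycles and 469 bp at 36 cycles. Csf1 was thus the only one of the 10 genes with a start site inside a peak of both lists. This peak had the highest GC content of the 55, at 60.8%, and held an NF-kB match 146 bp before the start site (Csf1 start above). Within the gene, a peak of 336 bp lay in an intron at 4.24 kb and a peak of 282 bp over an exon at 9.44 kb, both called at 30 cycles only.

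Behind the end of Csf1, 3 peaks lay at 19.6, 20.9 and 22.2 kb from the start site, with widths of 242, 195 and 733 bp. They were called at 30 cycles only, at 36 cycles only and in both lists, respectively. Farther downstream, peaks of 810 and 688 bp at 52.6 and 53.9 kb were in both lists and lay nearer to the start site of Ahcyl1, and a peak of 372 bp lay at 104.0 kb and was called at 30 cycles only.

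Upstream of Csf1, peaks of 381, 371 and 895 bp lay at 14.7, 30.0 and 36.1 kb. The first and the second were called at 30 cycles only, and the last, in both lists, held 3 AP-1 matches. A further group at 62.9, 67.8 and 69.0 kb upstream fell in the lincRNA gene Gm36211, with widths of 747, 961 and 700 bp. The 747 bp peak was the widest of the 13 peaks called at 36 cycles only, where the median was 276 bp. It held a run of 3 AP-1 matches whose starts lay 22 bases apart in repeated copies of 1 short sequence (Csf1 upstream above). At least 3 AP-1 matches were found in 2 of the 55 peaks (3.64%), both at Csf1, and in 1.07% of all peaks. Among protein-coding genes, Eps8l3 had the nearest start site to the 3 peaks of this group, at 47.1 to 53.1 kb.

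**Figure D2:**
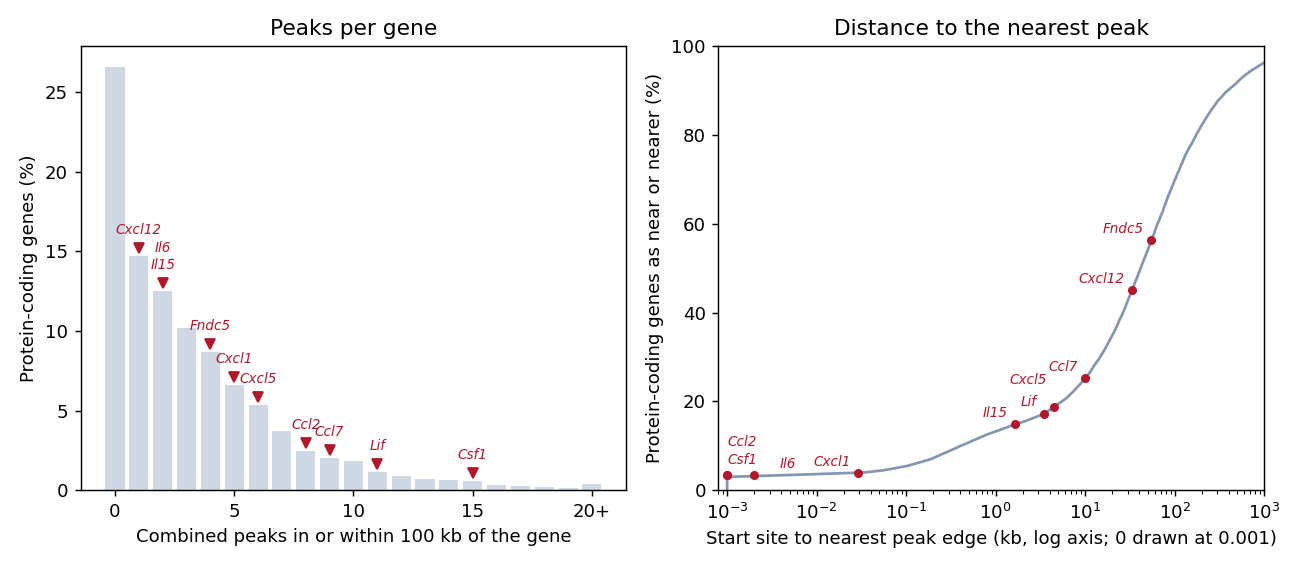
Left, bars give the percentage of protein-coding genes by number of combined peaks in or within 100 kb, and triangles mark the 10 genes. Right, the line gives the percentage of protein-coding genes whose start site is as near to a peak as the distance on the log axis in kb or nearer, with dots for the genes. Csf1 with 15 peaks stands where 1.87% of genes have as many or more, and Fndc5 where 56.2% of genes have a peak as near or nearer.

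The C-C chemokine genes Ccl2 and Ccl7, whose products attract monocytes, lie side by side and shared 8 peaks. Ccl2 (ENSMUSG00000035385) lies on chromosome 11 at 82035571 to 82037453 and Ccl7 (ENSMUSG00000035373) at 82045712 to 82047525, both on the plus strand. Of the shared peaks, 5 lay closest to the start site of Ccl2 and none to that of Ccl7. The nearest peak of Ccl7 was the one over the Ccl2 start site, 10.002 kb upstream, just outside the limit of 10 kb, whereas the nearest peak of Cxcl5, the most distant inside that limit, lay at 4.51 kb.

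In a stretch of 2.85 kb that ends at the start of Ccl2, 3 peaks followed each other. A peak of 513 bp lay 2.20 kb upstream of the start site in both lists, a peak of 225 bp lay 0.769 kb upstream at 36 cycles only, and a peak of 242 bp at 30 cycles only covered the start site (82035469 to 82035710). The region before Ccl2 thus carried a peak in either list, but the peak over the start site was found at 30 cycles alone. Its width of 242 bp was the smallest in the 30-cycle list. The 3 peaks also lie in introns of the predicted gene Gm17268.

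The 513 bp peak held a pair of NF-kB matches 2371 and 2345 bp before the Ccl2 start site, whose starts lay 26 bases apart, and an AP-1 match 2473 bp before it (Ccl2 near above). It was the only 1 of the 55 peaks with at least 2 NF-kB matches, an arrangement found in 0.332% of all peaks. A peak of 1052 bp in both lists, 23.1 kb upstream in an intron of the lincRNA gene Gm31522, held an AP-1 and an NF-kB match close together (Ccl2 far above). NF-kB and AP-1 matches occurred together in these 2 peaks alone among the 55 (3.64%), and in 2.05% of all peaks.

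Of the other peaks around Ccl2 and Ccl7, 1 lay upstream of both genes and the rest downstream. A peak of 526 bp at 30 cycles only lay 20.024 kb upstream of Ccl2 in an intron of Gm31522, and a peak of 717 bp in both lists lay 31.3 kb downstream of its start site, nearest to Ccl11. Ccl8, a further C-C chemokine gene, had a peak of 195 bp over its start site and a peak of 276 bp 0.844 kb from it, both at 36 cycles only. A peak of 289 bp at 36 cycles only lay 93.9 kb from the Ccl7 start site and, at 102.1 kb from the Ccl2 gene, just outside the window of Ccl2.

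The C-X-C chemokine genes Cxcl1 and Cxcl5, whose products attract neutrophils, lie on chromosome 5 in a cluster with Ppbp, Pf4, Cxcl3, Cxcl15 and Cxcl2, and shared no peak in their windows. Cxcl1 (ENSMUSG00000029380) lies at 90891241 to 90893115 on the plus strand and had 5 peaks, all upstream and within 14.8 kb. A peak of 465 bp ended 29 bp before its start site and was called at 30 cycles only. It held an NF-kB match 58 bp before the start site (Cxcl1 start above) and no AP-1 or E-box match. From 8.75 to 14.8 kb upstream, 4 peaks of 284 to 376 bp lay within 6.37 kb. Of these, 1 was in both lists, at 9.31 kb, with 243 bp at 30 cycles and 221 bp at 36 cycles that overlapped in part. AP-1 matches were present in 3 of these 4 peaks.

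Cxcl5 (ENSMUSG00000029371) lies at 90759360 to 90761624 on the plus strand and had the largest share of peaks common to both lists, 5 of 6. These were peaks of 316, 404, 531 and 510 bp at 74.8, 69.2, 52.7 and 5.01 kb upstream, and a peak of 1046 bp at 4.51 kb downstream of the start site. In the 1046 bp peak, the 30-cycle peak was 1011 bp and the 36-cycle peak 442 bp wide. The 510 bp peak had the lowest GC content of the 55, at 34.1%, and held 2 AP-1 matches. The 1046 bp peak and a peak of 368 bp at 6.42 kb, called at 30 cycles only, lay nearer to the start site of Ppbp, at 3.61 and 2.37 kb, and the most distant upstream peaks lay nearer to that of Rassf6, at 43.6 and 49.1 kb. The 316 bp peak, with 62.0% of its bases in repeats, held an E-box next to an AP-1 match (Cxcl5 far above), and the 531 bp peak was the only one at Cxcl5 with an NF-kB match, beside a C/EBP and a STAT match (Cxcl5 middle above).

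Cxcl12, which encodes a chemokine that guides CXCR4-bearing cells, and Fndc5, the precursor of irisin, had the fewest or the most distant peaks. Cxcl12 (ENSMUSG00000061353), on chromosome 6 at 117168535 to 117181367 on the plus strand, had 1 peak, of 254 bp, 33.4 kb downstream of the start site. It was called at 30 cycles only and held an E-box and a RUNX match. Of all protein-coding genes, 45.0% had a peak as near or nearer.

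Fndc5 (ENSMUSG00000001334), on chromosome 4 at 129136999 to 129144593 on the plus strand, had 4 peaks and none in both lists. They lay 98.2, 68.5 and 55.1 kb upstream and 67.4 kb downstream, with widths of 249, 245, 213 and 541 bp. None of them lay nearest to the Fndc5 start site, since the upstream peaks lay nearer to that of Rnf19b and the downstream peak nearer to that of Yars. The 213 bp peak was called at 36 cycles only and the other 3 at 30 cycles only, and 76.7% of the bases of the 249 bp peak were repeats. That peak was also the nearest to the edge of the window among the 55, at 98.2 kb from Fndc5, and a peak in both lists lay just outside it, at 100.4 kb.

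Cxcl12 and Fndc5 shared with Il6 and Il15 that no peak in the window was in both lists. A peak of both lists was found at the other 6 genes, compared with 47.8% of all protein-coding genes. Over the 55 peaks, 20 were in both lists (36.4%, 95% Wilson interval 24.9 to 49.6), 22 at 30 cycles only (40%) and 13 at 36 cycles only (23.6%). Among all peaks these shares were 35.4%, 45.5% and 19.1%, so the share of the 55 in both lists differed from that of all peaks by less than its interval. The intervals cover counting error over peaks only, and peaks of 1 locus are not independent.

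The peaks at the 10 genes resembled all peaks in width and base composition. Their median width was 368 bp, from 195 to 1356 bp, compared with 376 bp for all peaks, and their median GC content was 48.2% compared with 47.1%. Peaks in both lists were the widest, with a median of 708.5 bp, compared with 301.5 bp at 30 cycles only and 276 bp at 36 cycles only. Over all peaks the medians were 623, 324 and 255 bp. The narrowest peaks were 242 bp in the 30-cycle list and 195 bp in the 36-cycle list. Peaks of these smallest widths lay at Il6, Lif, Csf1, Ccl2 and Ccl8, each called in 1 list only. More than 1000 bp were spanned by 5 of the 55 peaks (9.09%, compared with 6.40% of all), of which 3 lay at Lif, 1 at Ccl2 and Ccl7 and 1 at Cxcl5. Of the 55 peaks, 36 lay between genes (65.5%), 6 overlapped 1 of the 10 genes, and 35 had the start site of 1 of the 10 as the nearest protein-coding start site. Positions between genes were not counted over all peaks, so whether that share is usual is unknown.

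**Figure D3:**
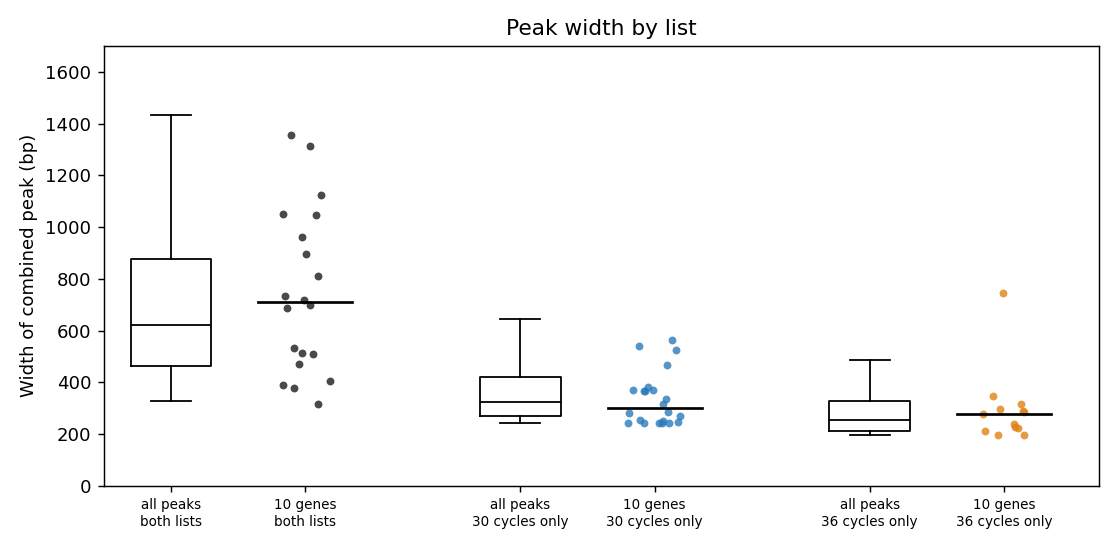
Width of combined peaks in bp by the list that called them. Boxes give quartiles of all peaks with whiskers from the 5th to the 95th percentile, dots are the 55 peaks at the 10 genes and lines their medians, which lie at 708.5 bp for both lists, 301.5 bp for 30 cycles only and 276 bp for 36 cycles only.

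Of 9 motifs searched in the central 200 bp of the peaks, the NF-kB motif GGANNTTCC was several times as frequent at the 10 genes as in all peaks. It was present in 7 of the 55 peaks (12.7%, interval 6.30 to 24.0) and in 2.42% of all peaks. Unlike the shares of AP-1 and the E-box, this share was not a planned result. With a window of 200 kb the share at the 10 genes was 8.25%, and among their 20 peaks of both lists it was 30%, compared with 2.85% of all such peaks. Over the whole peak the share was 20% (11 peaks, interval 11.6 to 32.4) compared with 5.64%. The 11 peaks lay in the windows of 7 of the 10 genes, namely Lif, Il15, Csf1, Ccl2, Ccl7, Cxcl1 and Cxcl5, and 7 of them were called in both lists. Ccl7 was counted only through peaks that it shared with Ccl2. At Lif the matches lay 39.6 kb upstream and 3.68, 45.2 and 50.8 kb downstream of the start site, and at Csf1 0.146 and 68.3 kb upstream.

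The AP-1 motif TGACTCA was present in 16 peaks (29.1%, interval 18.8 to 42.1) compared with 17.9% of all peaks, and the E-box CAGCTG in 14 peaks (25.5%, interval 15.8 to 38.3) compared with 18.0%. The interval of the E-box share held the share of all peaks, and that of the AP-1 share began just above it, while with a window of 50 kb the AP-1 share was 23.1%. Over whole peaks, AP-1 was present in 40% (interval 28.1 to 53.2) compared with 31.2% of all peaks and the E-box in 41.8% (interval 29.7 to 55.0) compared with 32.8%, and both intervals held the share of all peaks. The RUNX motif AACCNCA (20% compared with 18.6%), the TEAD motif GGAATG (16.4% and 15.6%), the C/EBP motif TTGCNNAA (10.9% and 9.17%) and the MEF2 motif CTANNNNTA (18.2% and 17.3%) lay close to all peaks, and the STAT motif TTCNNNGAA was found in 3.64% compared with 6.23%. The CRE motif TGACGTCA was found in 0 of the 55 peaks, for which the interval reaches 6.53%, and in 0.462% of all peaks. With 9 motifs, several peaks per locus and no test, these shares are a description of the 55 peaks.

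**Figure D4:**
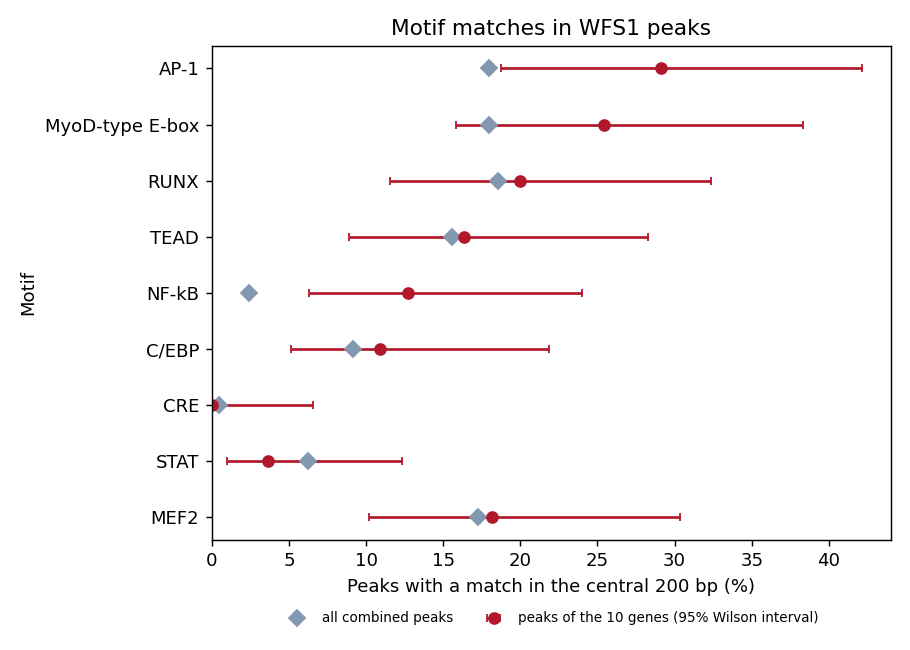
Percentage of peaks with a match in the central 200 bp, for the 55 peaks at the 10 genes (circles, bars are 95% Wilson intervals for counting error) and for all combined peaks (diamonds). NF-kB, at 12.7% compared with 2.42%, and AP-1, at 29.1% compared with 17.9%, are the motifs whose interval lies above the share of all peaks in this central part. Over whole peaks the AP-1 interval of 28.1 to 53.2 holds the share of all peaks, 31.2%.

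Few motif matches were found at the start sites. Of the 4 peaks that covered a start site or came within 100 bp of it, 2 held an NF-kB match (Csf1 and Cxcl1), 1 a RUNX match and none an AP-1 or E-box match. These counts are over whole peaks. RefSeq promoters on GRCm38.p6, which run from 250 bases before to 50 after a start site, were given for 6 of the 10 genes. Those of Il6, Csf1 and Cxcl1 each held an NF-kB match and overlapped a peak. At Csf1 and Cxcl1 the match lay inside the peak but outside its central 200 bp. At Il6 it lay before the start site, outside the peak, which began 2 bp past that site and held none of the motifs searched. The promoters of Lif, Cxcl12 and Fndc5 held no NF-kB match and overlapped no peak. Ccl2, whose peak over the start site held no NF-kB match, was not among these 6 genes, so its promoter was not searched. Whether peak and NF-kB motif go together at promoters was not tested. Among all 32851 promoters, 4.26% held this motif.

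Other genes of the same pathways were listed by function, and peaks were found in or within 100 kb of 78 of the 90 that matched the annotation (86.7%, compared with 73.4% of all protein-coding genes). Of these genes, 19 had a peak no more than 1 kb from the start site (21.1%, compared with 13.2%). These lists, too, were chosen with earlier results of these data known. Among the C-C chemokine genes, 15 of 16 had a peak in the window, with most at Ccl12 (11 peaks) and Ccl8 (10), and those with a peak within 1 kb were Ccl8 and Ccl25. Among C-X-C and other chemokine genes the count was 11 of 13, with 9 peaks each at Cxcl3 and Cxcl15 and a peak within 1 kb at Cx3cl1 alone. Many of these windows hold peaks of Ccl2, Ccl7, Cxcl1 and Cxcl5, since the genes lie in the same clusters.

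Among IL-6 family and other interleukin genes, 14 of 15 had a peak in the window, with 10 each at Osm and Il34, and a peak lay within 1 kb of Clcf1 and Il7. Among other myokine genes, a peak was found in the window of 11 of 14 (78.6%) and within 1 kb for 6 of them (42.9%), namely Metrnl, Erfe, Angptl4, Vegfa, Gdf15 and Dcn, with most peaks at Erfe (16) and Gdf15 (14). Receptors of the 10 proteins had a peak in 10 of 15 windows and none within 1 kb of a start site, although 12 peaks were counted at Ackr3, a CXCL12 receptor, and 11 at Lifr, the LIF receptor. Transcriptional and mRNA regulators had a peak in all 17 windows and within 1 kb for 8 genes, which were Nfkb1, Nfkb2, Nfkbiz, Socs3, Jak2, Cebpd, Zfp36 and Zfp36l1. Of these genes, Nfkb1 and Nfkb2 encode NF-kB subunits and Socs3 an inhibitor of IL-6 family signalling, and most peaks were at Cebpb (16) and Socs3 (15).

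**Figure D5:**
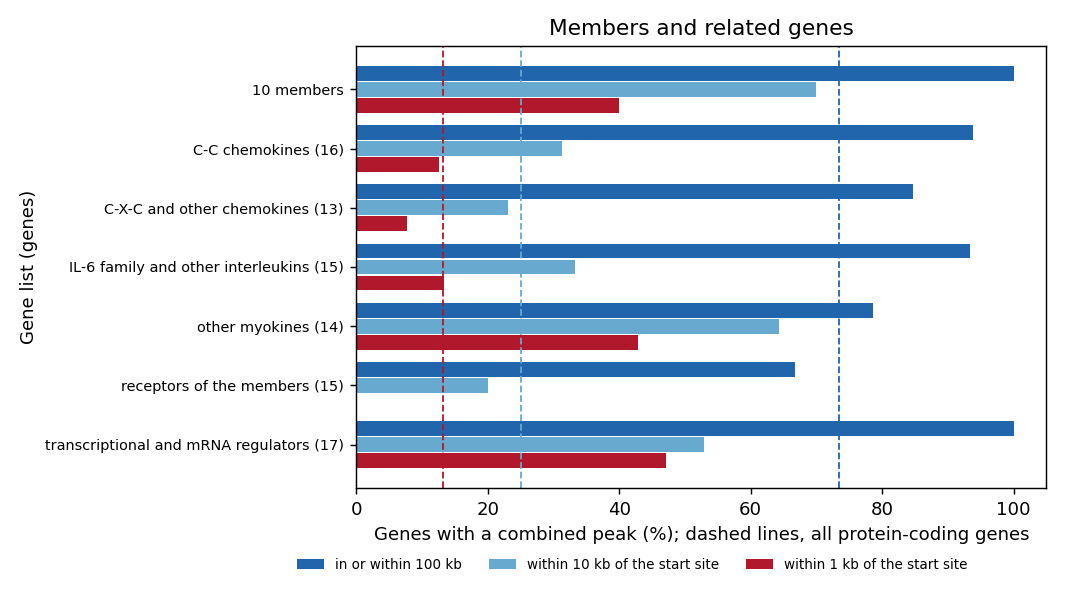
Percentage of genes with a combined peak in or within 100 kb, within 10 kb of the start site and within 1 kb of it, for the 10 genes and 6 lists of related genes with the number of genes in parentheses. Dashed lines give all protein-coding genes (73.4%, 25.1% and 13.2%), and the receptors show 0 genes within 1 kb.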

How the data were processed

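Peak positions were analyzed for 2 of 8 libraries, wildtype WFS1 ChIP after 30 and 36 sonication cycles. The authors mapped reads to GRCm38 (mm10) with NextGenMap, used samtools to drop reads of low mapping quality, and ran MACS2 on each library on its own. In the deposited lists a peak has a chromosome and its boundaries but no score, signal or read count, so depth is unknown and values are not normalized for it. The control used in peak calling is not given in the sources used here.

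The lists were joined with bedtools merge (version 2.31.1), as the authors did, and overlap meant at least 1 bp. Genes came from GENCODE mouse release 21, a release other than the one named in the Methods of the study, and the start site of a gene was its 5′ end. Distances run from the start site to the nearest peak edge, signed by strand. Motifs were searched on both strands of GRCm38.p6, in the central 200 bp and in whole peaks. Wilson intervals (95%) were computed with scipy 1.17.1. The functions were tested on simulated data. The 10 genes, the lists of related genes and the motifs were chosen with earlier results of these data known. All 10 genes were named, together with related genes that had a peak no more than 1 kb from the start site or were among the 2 with most peaks in their list, and genes nearer to a peak, of which 1 is not reported here. Of 92 related genes, 90 matched. No test was possible with 1 library per condition. Alternatives were each list alone, stricter peak sets, other windows, joining of peaks up to 500 bp apart, and other definitions of overlap and distance.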

Additional observations from a re-analysis of the deposited data

How the results depend on the processing

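The median distance to the nearest peak ranged from 2.55 kb to 25.9 kb over the alternatives, with 9.83 kb in the 36-cycle list. Among peaks of both lists, the nearest lay at -875.146 kb for Il15 and 145.191 kb for Cxcl12. The share of peaks with TGACTCA ranged from 23.1% to 40%, the latter for whole peaks (31.2% of all), and stayed within its interval. Of the 90 related genes, 58 had a peak of both lists in the window, compared with 47.8% of all protein-coding genes. With a window of 200 kb it was 86, compared with 83.8% of all. With peaks of both lists only, 6 of the 10 genes had a peak in or within 100 kb (47.8% of all protein-coding genes). Within 10 kb of the start site, 4 of the 10 had such a peak (9.11% of all). The distinct peaks were then 20, with a median width of 708.5 bp. With peaks at least as wide as the median of all peaks, 4 genes had a peak within 10 kb. The distinct peaks were then 25, of which 76% were in both lists, with a median width of 688 bp. Neither value was counted over all genes or all peaks under this width limit. Peaks of both lists were also the widest over all peaks, with a median of 623 bp. The 36-cycle list alone gave 34 distinct peaks and a window of 200 kb gave 97. CAGCTG was found in 41.8% of whole peaks (32.8% of all). For GGANNTTCC, alternatives chosen after seeing the data gave 30% of peaks in both lists (2.85% of all such peaks) and 28% of the wider peaks (2.84%), and the lowest were 8.25% with a window of 200 kb and 8.82% in the 36-cycle list (2.56%). Over all annotated genes in place of protein-coding genes, 63.0% had a peak within 100 kb.

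The nearest peak changed side for Il6, to -61.983 kb in the 30-cycle list and -118.164 kb among peaks of both lists and among wide peaks, and for Lif, to -39.403 kb in the 36-cycle list and in both stricter sets. It changed side for Il15, to 258.897 kb in the 36-cycle list and 106.592 kb among wide peaks, and for Fndc5, to 67.376 kb in the 30-cycle list and among wide peaks. The cause was not tested. A stricter peak threshold could not be applied, since the lists hold no score. Both lists come from 1 immunoprecipitation with 1 library per condition, so no paired test was possible and no value comes from a test.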
